A study of Homo sapiens with 12 samples.

Results

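Heme is made from glycine and succinyl-CoA by a chain of enzymes, and 8 of the genes for that chain, ALAS1, ALAS2, ALAD, UROS, UROD, CPOX, PPOX and FECH, were followed here in HUDEP-2 cells with and without MBD2. They were chosen by name as the enzymes from ALAS to ferrochelatase, matched by Ensembl identifier, and made up 8 of the 60483 genes in the counts table, covering most but not all steps. All 8 passed the filter on low counts, which kept 17175 genes. HUDEP-2 is an immortalized human erythroid progenitor line, and MBD2 is a methyl-CpG-binding protein of the NuRD chromatin remodelling complex.

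RNA sequencing covered 4 groups of 3 libraries: MBD2-/- cells after differentiation, control cells after differentiation, MBD2-/- cells before differentiation, and control cells before differentiation. Control cells carried a scrambled guide RNA and are labelled WT. Cells before differentiation, labelled early basophilic erythroblasts, were in expansion medium with stem cell factor and dexamethasone. Those after differentiation, labelled late basophilic erythroblasts, were in medium with human serum, insulin, heparin and holo-transferrin. Both media held erythropoietin and doxycycline, so each comparison of stages is also one of media. The growth protocol gives 5 days of differentiation and the extraction protocol gives 3. The labels do not say whether the knockout cells were a clone or whether the 3 libraries of a group came from separate cultures, so p-values measure the spread between these libraries, which may be technical. Library preparation removed ribosomal RNA and globin mRNA.

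The pathway starts in mitochondria, passes through the cytosol and ends in mitochondria. Its entry reaction, the joining of glycine and succinyl-CoA into 5-aminolevulinic acid, is rate-limiting and is carried out by ALAS1 in most tissues and by the X-linked isoenzyme ALAS2 in erythroid cells. ALAD joins 2 molecules of 5-aminolevulinic acid into porphobilinogen in the cytosol, UROS closes the linear tetrapyrrole into uroporphyrinogen III, and UROD decarboxylates it to coproporphyrinogen III. CPOX and PPOX then oxidize it in mitochondria, and FECH, ferrochelatase, inserts iron. Erythroblasts carry most of the body's heme synthesis, to supply hemoglobin, and inherited defects of these enzymes cause the porphyrias and a sideroblastic anemia.

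Sequences at the starts of these genes show where they differ in motifs and CpGs. RefSeq promoter windows of build GRCh38.p14 matched 7 of the 8 genes (9 windows, all but UROS). Those shown are each the 250 bases upstream of a RefSeq transcription start, read in the direction of transcription: those of both ALAS isoenzymes, since they moved differently, of CPOX, which held the same GATA motif as ALAS2, and of FECH, the last enzyme. The gene spans of the counts annotation reach further upstream and run into the windows of ALAS2, CPOX and FECH. Capitals mark GATAA or its reverse complement TTATC, a core bound by GATA factors and called the GATA core here. They also mark CACCC or its reverse complement GGGTG, the core bound by KLF factors. Other forms of the GATA site were not searched for.
ALAS2, chrX:55030978-55031227, minus strand: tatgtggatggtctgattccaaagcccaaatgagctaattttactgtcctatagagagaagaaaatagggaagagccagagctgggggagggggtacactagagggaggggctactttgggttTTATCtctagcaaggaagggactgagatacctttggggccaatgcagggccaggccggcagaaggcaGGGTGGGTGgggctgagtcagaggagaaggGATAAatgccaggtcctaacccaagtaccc
CPOX, chr3:98593612-98593861, minus strand: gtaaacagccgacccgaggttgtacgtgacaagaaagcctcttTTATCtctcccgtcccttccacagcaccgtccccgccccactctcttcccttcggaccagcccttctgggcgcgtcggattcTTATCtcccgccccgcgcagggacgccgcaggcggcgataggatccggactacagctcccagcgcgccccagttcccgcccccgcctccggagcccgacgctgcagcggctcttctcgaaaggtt
ALAS1, chr3:52197833-52198082, plus strand: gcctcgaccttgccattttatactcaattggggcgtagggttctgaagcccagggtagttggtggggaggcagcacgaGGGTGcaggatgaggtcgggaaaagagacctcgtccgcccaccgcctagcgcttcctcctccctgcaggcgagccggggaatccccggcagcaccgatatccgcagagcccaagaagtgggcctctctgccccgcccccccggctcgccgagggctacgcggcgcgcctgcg
FECH, chr18:57586703-57586952, minus strand: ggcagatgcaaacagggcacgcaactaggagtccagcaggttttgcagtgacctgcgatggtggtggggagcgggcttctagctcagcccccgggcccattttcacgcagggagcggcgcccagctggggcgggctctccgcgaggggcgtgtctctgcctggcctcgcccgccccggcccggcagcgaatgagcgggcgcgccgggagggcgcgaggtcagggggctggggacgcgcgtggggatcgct
The ALAS2 window held GATAA or TTATC at 2 places, with first bases 127 and 30 bases upstream, and GGGTG at 2 places, 60 and 56 bases upstream, which overlap by 1 base. In CPOX the GATA core stood at 2 places, 207 and 125 bases upstream, with no CACCC. The 250 bases of ALAS1 held no GATA core and 1 GGGTG, and those of FECH held neither motif. Of the windows not shown, 1 of the 2 of PPOX held the GATA core, 63 bases upstream, and CACCC or GGGTG at 3 places, and the other held neither. UROD also held neither, and of these 2 cores the ALAD windows held only CACCC. Over all 35116 RefSeq windows of the same length, 20.4% held the GATA core and 54.7% the CACCC core on either strand. CpG dinucleotides, the sites that MBD2 binds when methylated, numbered 1 in the ALAS2 window and 12 to 27 in the other 8 windows. In 6.1% of all windows there were fewer CpGs than in ALAS2, against 51.5% to 82.3% for the others. DNA methylation was not measured in these libraries, and a match to a motif is a description of the letters.

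ALAS2 mRNA also begins with an iron-responsive element, a stem-loop to which iron regulatory proteins bind when iron is scarce, blocking translation. It is shown because it sets ALAS2 apart from ALAS1, and the capitals mark the loop, found by the pattern CAGTGN in the first 50 transcribed bases.
ALAS2 element, chrX:55030943-55030966, minus strand, 5′ UTR: gttcgtcctCAGTGCagggcaaca
Counted from the RefSeq start, the loop began at transcribed base 21. The 6-letter pattern CAGTGN stood in the same 50 bases of 6.4% of all windows, and these libraries measure RNA, not translation.

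Total counts per library ran from 7667997 to 14047498. Per library, the 8 genes had between 155 counts (ALAS1) and 8767 counts (ALAS2), so counting error weighs most on ALAS1. MBD2, the targeted gene, averaged 15.84 ± 1.101 CPM in knockout cells after differentiation and 59.6 ± 1.66 CPM in control cells at that stage (SD, n = 3 each). Before differentiation it averaged 22.4 ± 2.36 CPM in knockout cells and 77.2 ± 1.74 CPM in control cells, so its RNA was lower in every knockout library and was not lost. CPM are counts scaled to library size after TMM scaling of library sizes. Of 12 erythroid markers, 11 were higher in knockout cells after differentiation and 6 before it, with none lower. Across all genes tested, 16.8% were called higher and 16.3% lower after differentiation, and 9.07% and 8.15% before it. The 12 include HBB, HBA1 and HBA2, globin genes whose mRNA the library preparation removed and whose counts scatter widely. In knockout cells after differentiation HBA2 averaged 5698 ± 5038 CPM (SD, n = 3). Mast cell and basophil markers summed to 381 to 405.5 CPM in knockout libraries and to 649.5 to 668 CPM in control libraries after differentiation, and 5 of the 6 tested (of 8 listed) were lower. Before differentiation that sum was 724 to 757 CPM in knockout libraries and 895 to 947.5 CPM in control libraries, with 3 of 6 lower and none higher. These sums are mostly KIT. It averaged 370 CPM in knockout and 586 CPM in control cells after differentiation, and 662 and 741 CPM before it. MS4A2 averaged 0.99 CPM in knockout and 69.4 CPM in control cells before differentiation. Neutrophil and monocyte markers summed to 27.1 to 36.9 CPM in knockout libraries and 10.8 to 12.7 CPM in control libraries before differentiation, where 5 of 5 tested (of 8 listed) were higher. The filter kept genes expressed in a single group, so that count was partly set in advance. ELANE averaged 1.51 CPM in undifferentiated knockout cells and at most 0.18 CPM in each other group. After differentiation the neutrophil and monocyte sum was at most 8.58 CPM in knockout libraries and 6.00 CPM in control libraries, with 0 of 5 called. Megakaryocyte markers summed to 11.7 to 13.01 CPM in knockout libraries and 11.6 to 14.2 CPM in control libraries after differentiation, and to 36.1 to 56.8 CPM in knockout libraries and 26.2 to 29.8 CPM in control libraries before it, with PPBP at 0 in all. The 1 of 8 tested, ITGA2B, was higher in knockout cells before differentiation (log2 fold change 0.65) and not called after it (-0.13), was lower after than before differentiation in both genotypes, and had a negative interaction (-0.77). None of 8 lymphoid and 6 stromal or endothelial markers passed the filter, and each of these sums was at most 1.26 CPM. Transcripts of ribosomal RNA genes took 1.68% to 2.74% of counts in knockout libraries and 0.562% to 1.05% in control libraries after differentiation, and 0.842% to 1.29% against 0.394% to 1.08% before it. The part of these markers and of ribosomal RNA in the results that follow was not tested. In bulk RNA, more cells of a maturing kind and more RNA per cell cannot be told apart.

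Heme synthesis genes stood higher in knockout cells, most of all after differentiation. After differentiation 7 of 8, all but ALAS1, were higher in knockout than in control cells, with a median log2 fold change of 0.94. Across all 17175 genes 16.8% were called higher and 16.3% lower there, and their median was -0.01. Before differentiation 6 of 8 were higher, all but ALAD and PPOX, with a median of 0.33, where 9.07% of all genes were called higher and 8.15% lower. In knockout cells 7 of 8 were higher after than before differentiation (median 0.67, 28.0% of all genes called higher and 27.7% lower), and in control cells 4 of 8 (median 0.10, 21.5% of all genes called higher and 22.3% lower). No member was called lower in any of these comparisons. The knockout effect itself was larger after than before differentiation for 7 of 8 members by the interaction contrast, which called 6.28% of all genes in that direction and 6.68% in the other. Calls are at an adjusted p under 0.05 in the two-sided quasi-likelihood F-test of edgeR, adjusted by Benjamini-Hochberg over all genes tested. Scaling by library size alone left these 7 members called higher in the knockout after differentiation, while the share of all called genes that were higher was 27.6%, against 50.7% with TMM. That share was 35.1%, against 50.3% with TMM, for stages in knockout cells and 23.1%, against 48.5%, for the interaction.

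**Figure D1:**
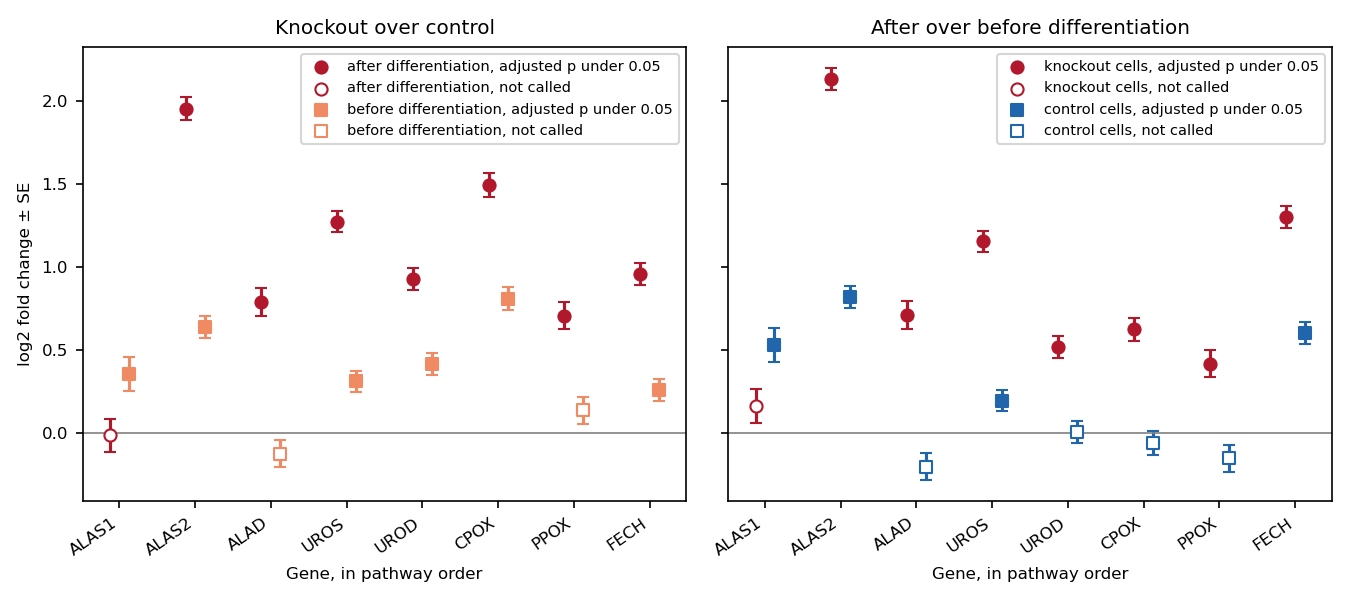
Log2 fold change ± SE (y axis) of each heme synthesis enzyme (x axis, in pathway order), with knockout over control on the left (circles after, squares before differentiation) and after over before differentiation on the right (circles knockout, squares control cells). Filled symbols passed an adjusted p of 0.05. ALAS2 reached 1.96 in knockout over control after differentiation and ALAS1 lay at -0.02.

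ALAS2, the erythroid isoenzyme of the entry step, showed the largest difference of the 8 genes between knockout and control cells after differentiation. After differentiation it had 962, 943 and 1027 CPM in knockout libraries, against 256.5, 254 and 245 CPM in control libraries. All knockout libraries lay far above all control libraries. The knockout level was 3.88-fold that of control cells, a log2 fold change of 1.96 ± 0.07 (SE, edgeR adjusted p = 2.37e-12), and 223 of the 17175 genes had a larger increase. Before differentiation ALAS2 had 237, 226 and 204 CPM in knockout libraries, against 143, 141.5 and 144 CPM in control libraries. Those groups did not overlap either, with a log2 fold change of 0.64 ± 0.07 (edgeR adjusted p = 2.62e-06). With differentiation it rose 4.39-fold in knockout cells and 1.76-fold in control cells (edgeR adjusted p = 3.92e-13 and 4.48e-08). The interaction was 1.32 ± 0.09 on the log2 scale (edgeR adjusted p = 3.11e-07). Undifferentiated knockout cells, at 222 ± 16.7 CPM, came close to differentiated control cells, at 252 ± 6.01 CPM (SD, n = 3 each), and lay below them by a log2 fold change of -0.18 ± 0.07 (edgeR adjusted p = 0.0328).

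ALAS1, the housekeeping isoenzyme, was the member that did not follow this pattern. After differentiation it had 20.6, 23.8 and 24.3 CPM in knockout libraries, against 22.6, 24.9 and 21.8 CPM in control libraries. These values interleave, and the log2 fold change was -0.02 ± 0.10 (edgeR adjusted p = 0.915). Before differentiation ALAS1 had 20.5, 21.4 and 19.6 CPM in knockout libraries, against 15.8, 17.5 and 14.8 CPM in control libraries, so the groups lay apart. The log2 fold change was 0.35 ± 0.10 (edgeR adjusted p = 0.0234). That call was lost without control library 1 (adjusted p = 0.0811), control library 3 (0.09), knockout library 1 (0.0532) or knockout library 2 (0.0712), all collected before differentiation, with no filter on low counts (0.0519), and in a fit of these 2 groups alone (0.0585). Differentiation raised ALAS1 in control cells by 0.53 ± 0.10 on the log2 scale (edgeR adjusted p = 0.000422), while the value in knockout cells was 0.16 ± 0.10 (edgeR adjusted p = 0.198). The interaction, -0.37 ± 0.14, did not pass the threshold (edgeR adjusted p = 0.103).

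The isoenzymes therefore stood in different proportions in the groups. Scaled by exon length, ALAS2 RNA was 50.9 ± 4.17 times ALAS1 RNA in knockout cells after differentiation and 13 ± 0.755 times in control cells at that stage (SD, n = 3 each). Before differentiation the ratio was 12.9 ± 0.75 in knockout cells and 10.68 ± 1.008 in control cells. As a share of all ALAS RNA per kilobase, ALAS2 made up 98.1% ± 0.16 in knockout cells and 92.8% ± 0.40 in control cells after differentiation, and 92.8% ± 0.38 in knockout cells and 91.4% ± 0.75 in control cells before it. Knockout libraries lay above control libraries at both stages, and libraries after differentiation lay above those before it in both genotypes. An exact two-sided permutation test gave p = 0.1 for each of these 4 comparisons, adjusted p = 0.1, the smallest value that 3 against 3 libraries allow, so none can reach the threshold.

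**Figure D2:**
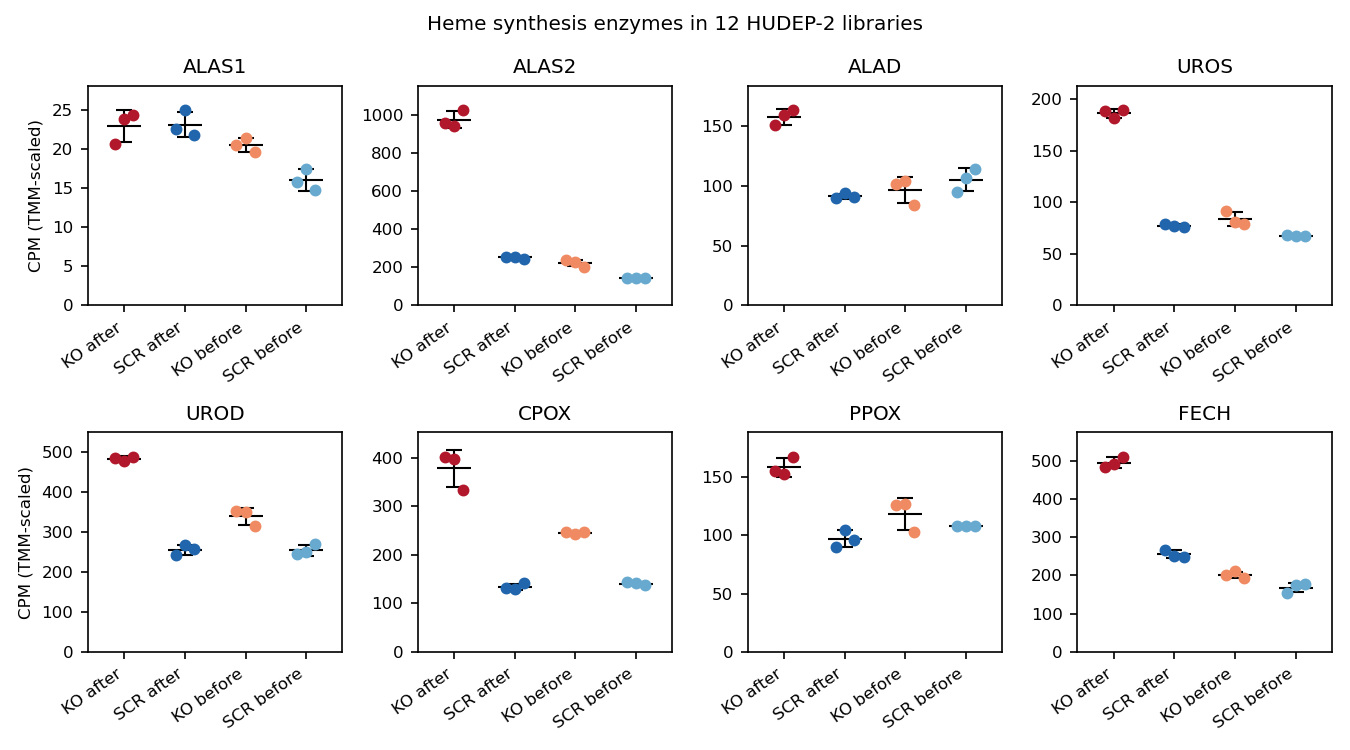
CPM after TMM scaling (y axis, from 0, a scale of its own per gene) of the 8 enzymes in each of the 12 libraries, by group on the x axis. Points are libraries, and the horizontal bar with its error bar is the mean ± SD of 3. ALAS2 lay between 943 and 1027 CPM in knockout libraries after differentiation and at most at 256.5 CPM elsewhere, while the ALAS1 groups after differentiation overlapped.

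In the cytosolic steps, ALAD differed between genotypes after differentiation and not detectably before it. After differentiation ALAD, which makes porphobilinogen, had 150.9, 159 and 163.5 CPM in knockout libraries, against 89.7, 94.0 and 90.5 CPM in control libraries. Every knockout library lay above every control library, and the log2 fold change was 0.79 ± 0.08 (edgeR adjusted p = 1.15e-06). Before differentiation it had 102, 104 and 83.8 CPM in knockout libraries, against 95.4, 107 and 114 CPM in control libraries. Those groups overlapped, with a log2 fold change of -0.13 ± 0.08 (edgeR adjusted p = 0.338). The interaction was 0.92 ± 0.12 on the log2 scale (edgeR adjusted p = 8.15e-05). In knockout cells ALAD rose with differentiation by 0.71 ± 0.08 (edgeR adjusted p = 1.45e-06). In control cells all 3 libraries after differentiation lay below all 3 before it, at -0.21 ± 0.08 on the log2 scale, and the test missed the threshold (edgeR adjusted p = 0.054). It passed as lower without control library 1 (adjusted p = 0.0186) or knockout library 1, 2 or 3 from before differentiation (0.0496, 0.037 and 0.0212), and under 4 other settings.

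UROS, which closes the tetrapyrrole ring, followed ALAS2 and CPOX in the size of its difference after differentiation. It then had 189, 182 and 189 CPM in knockout libraries, against 78.7, 77.1 and 75.8 CPM in control libraries. The groups were far apart, 2.42-fold, with a log2 fold change of 1.27 ± 0.06 (edgeR adjusted p = 1.51e-10). Before differentiation UROS had 91.2, 80.7 and 79.0 CPM in knockout libraries, against 67.9, 67.5 and 67.3 CPM in control libraries. Here too no libraries overlapped, and the log2 fold change was 0.31 ± 0.06 (edgeR adjusted p = 0.00248). Differentiation raised UROS by 1.16 ± 0.06 in knockout cells (edgeR adjusted p = 1.62e-10) and by 0.19 ± 0.06 in control cells (edgeR adjusted p = 0.0228). The control call was lost without control library 1, 2 or 3 from before differentiation (adjusted p = 0.0582, 0.0741 and 0.0673) or control library 1 or 2 from after it (0.0787 and 0.0615). It was also lost with library sizes alone (0.0836) and with no filter (0.212). The interaction of UROS was 0.96 ± 0.09 (edgeR adjusted p = 3.75e-06).

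UROD, the decarboxylase that ends the cytosolic part, had 484, 477 and 487 CPM in knockout libraries after differentiation, against 241, 265.5 and 256.5 CPM in control libraries. The knockout group lay above the control group throughout, by a log2 fold change of 0.92 ± 0.07 (edgeR adjusted p = 1.21e-08). Before differentiation UROD had 351, 349 and 314 CPM in knockout libraries, against 243, 248 and 269 CPM in control libraries. The groups again lay apart, by 0.41 ± 0.07 (edgeR adjusted p = 0.000245). In control cells UROD showed no detectable change with differentiation, at 0.00 ± 0.07 on the log2 scale (edgeR adjusted p = 0.968). In knockout cells it rose by 0.51 ± 0.07 (edgeR adjusted p = 4.49e-06), and the interaction was 0.51 ± 0.09 (edgeR adjusted p = 0.00171).

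Among the mitochondrial steps, CPOX, which makes protoporphyrinogen IX, showed the largest difference between knockout and control cells before differentiation of the 8 genes. At that stage CPOX had 247, 242 and 248 CPM in knockout libraries, against 143, 141 and 137 CPM in control libraries. The groups lay far apart, with a log2 fold change of 0.81 ± 0.07 (edgeR adjusted p = 3.53e-07). After differentiation it had 402, 399 and 334 CPM in knockout libraries, against 132, 130.0 and 141 CPM in control libraries. Knockout library 3 was the lowest of its group and still far above every control library, and the log2 fold change was 1.49 ± 0.07 (edgeR adjusted p = 1.01e-10). In control cells CPOX did not change detectably with differentiation, at -0.06 ± 0.07 (edgeR adjusted p = 0.505). It rose by 0.62 ± 0.07 in knockout cells (edgeR adjusted p = 9.76e-07), and the interaction was 0.69 ± 0.10 (edgeR adjusted p = 0.000254). Undifferentiated knockout cells, at 246 ± 3.01 CPM, already stood above differentiated control cells, at 134 ± 5.94 CPM (SD, n = 3 each), by 0.87 ± 0.07 (edgeR adjusted p = 4.52e-08). CPOX shares 311 of its 3666 exon bases (8.5%) with CLDND1 on the same strand. CLDND1 averaged 43.3 ± 5.09 CPM in knockout cells and 29.4 ± 0.93 CPM in control cells after differentiation.

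PPOX, the oxidase that makes protoporphyrin IX, had 155, 152.5 and 168 CPM in knockout libraries after differentiation, against 90.02, 105 and 96.5 CPM in control libraries. The groups did not overlap, and the log2 fold change of 0.70 ± 0.08 (edgeR adjusted p = 3.16e-06) was the smallest of the 7 members called there. Before differentiation PPOX had 126, 127 and 103 CPM in knockout libraries, against 108.2, 108.3 and 108.3 CPM in control libraries. Knockout library 3 lay below the controls and the other 2 above them, so the groups overlapped, at 0.13 ± 0.08 (edgeR adjusted p = 0.296). Without that library the difference was 0.22 and passed (edgeR adjusted p = 0.0496). Differentiation raised PPOX by 0.42 ± 0.08 in knockout cells (edgeR adjusted p = 3e-04), while control cells gave -0.16 ± 0.08 (edgeR adjusted p = 0.132), and the interaction was 0.57 ± 0.11 (edgeR adjusted p = 0.00308). PPOX shares 1118 of its 4607 exon bases (24.3%) with B4GALT3 on the opposite strand. Counting used no strand option, so reads in that stretch cannot be assigned to either gene. B4GALT3 was counted at 17.02 ± 1.71 CPM in knockout cells and 12.98 ± 2.68 CPM in control cells after differentiation, far below PPOX.

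FECH, which inserts iron to complete heme, had 483, 492 and 510.2 CPM in knockout libraries after differentiation, against 267, 251 and 248 CPM in control libraries. No libraries overlapped, and the knockout level was 1.94-fold that of control cells, a log2 fold change of 0.96 ± 0.07 (edgeR adjusted p = 8.91e-09). Before differentiation FECH had 201, 210.2 and 192 CPM in knockout libraries, against 154, 175 and 176 CPM in control libraries. The groups lay apart by 0.26 ± 0.07 on the log2 scale (edgeR adjusted p = 0.0132), a call lost without control library 1 (adjusted p = 0.0983) and in a fit of these 2 groups alone (0.0508). Differentiation raised FECH in both genotypes, by 1.30 ± 0.07 in knockout cells (edgeR adjusted p = 9.17e-11) and by 0.60 ± 0.07 in control cells (edgeR adjusted p = 1.77e-06). The interaction was 0.70 ± 0.09 (edgeR adjusted p = 0.000139). Its pseudogene FECHP1 on chromosome 3 had at most 48 counts in any library, against at least 1637 for FECH.

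FECH lies on chromosome 18, as does MBD2, and the median gene of that chromosome was lower in knockout libraries. After differentiation the 265 tested genes there, FECH included, had a median log2 fold change of -0.38 between knockout and control cells, with 115 called lower and 13 higher. Genes on all other chromosomes had a median of 0.00, and 16.3% of all tested genes were called lower and 16.8% higher. FECH, at 0.96, stood 1.34 above the median of its chromosome, and 5 of the 265 genes had a larger value. Before differentiation that median was -0.48, with 149 called lower and 5 higher, and FECH at 0.26 stood 0.74 above it, below 13 of the 265. At that stage 8.15% of all tested genes were called lower and 9.07% higher. For after over before differentiation the median of the chromosome was 0.07 in knockout cells and -0.05 in control cells. What part the state of this chromosome has in the FECH values was not tested. In build hg38 FECH spans chr18:57548283-57586772 on the minus strand. The other enzymes lie elsewhere: ALAS1 at chr3:52198086-52214327, ALAS2 at chrX:55009055-55031064, ALAD at chr9:113386317-113401333, UROS at chr10:125784980-125823248, UROD at chr1:45012147-45015575, CPOX at chr3:98521132-98593723 and PPOX at chr1:161166410-161178013.

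**Figure D3:**
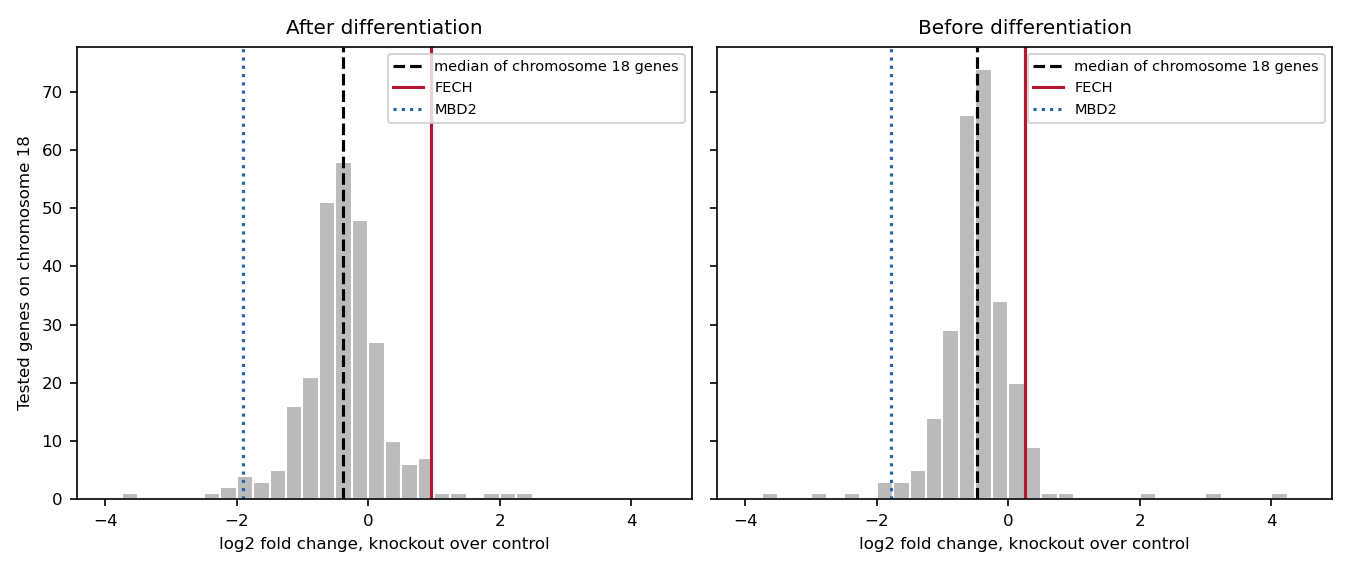
Numbers of tested chromosome 18 genes (y axis) by their log2 fold change of knockout over control (x axis, bins of 0.25), after differentiation on the left and before it on the right. The dashed black line is the median of the 265 genes (-0.38 after, -0.48 before), the solid red line FECH (0.96 and 0.26) and the dotted blue line MBD2 (-1.91 and -1.79).

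The order of the 4 groups differed among members. Knockout cells after differentiation were the highest group for all members but ALAS1, and all 8 were above undifferentiated control cells (29.5% of all genes called higher there). For ALAS2 and FECH the order ran from differentiated knockout over differentiated control and undifferentiated knockout to undifferentiated control cells, with every neighbouring pair called. For UROD, CPOX and PPOX undifferentiated knockout cells stood above differentiated control cells, by 0.41 ± 0.07, 0.87 ± 0.07 and 0.29 ± 0.08 on the log2 scale (edgeR adjusted p = 7.69e-05, 4.52e-08 and 0.00704), and ALAS2 and FECH stood below them, in a comparison that called 24.8% of all genes higher and 22.8% lower. For PPOX, those groups overlapped by 1 library of each. The 2 control groups were not told apart for UROD, CPOX and PPOX, nor were the 3 lower groups of ALAD by neighbouring pairs. For UROS the middle groups, undifferentiated knockout over differentiated control cells, were not told apart by the test, at 0.12 on the log2 scale (edgeR adjusted p = 0.143). Their libraries did not overlap, at 79.0 CPM or more in the knockout and at most 78.7 CPM in the control group.

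The make-up of the pathway's RNA shifted with these changes. Per kilobase of exon, the highest level in knockout cells after differentiation was that of ALAS2, at 458 ± 20.6 CPM per kb, followed by UROD at 166 ± 1.78, FECH at 110.7 ± 3.11 and CPOX at 103 ± 10.4 CPM per kb. PPOX (34.4 ± 1.74), ALAD (31.7 ± 1.29), UROS (28.1 ± 0.64) and ALAS1 (9.04 ± 0.79 CPM per kb) came lower. FECH and CPOX differed there by less than the SD of CPOX. In control cells before differentiation UROD led, at 87.2 ± 4.76 CPM per kb, ahead of ALAS2 at 66.99 ± 0.70 CPM per kb. CPOX and FECH followed at 38.3 ± 0.80 and 37.6 ± 2.84 CPM per kb, not apart beyond their spread, and ALAS1 was last at 6.31 ± 0.54 CPM per kb. ALAS2 made up 48.6% ± 1.25 of the summed level in knockout cells and 32.9% ± 0.72 in control cells after differentiation. Before it, ALAS2 made up 26.2% ± 0.63 in knockout cells and 23.0% ± 0.58 in control cells. UROD took 17.6% ± 0.20 in knockout cells and 24.3% ± 0.97 in control cells after differentiation, so its level was higher and its share lower in knockout cells. All 8 genes together held 0.259% ± 0.009 of library counts in knockout cells and 0.120% ± 0.001 in control cells after differentiation. Before differentiation they held 0.137% ± 0.007 in knockout cells and 0.105% ± 0.006 in control cells. Exon length is that of all annotated exons, so levels between genes hold to that scale alone. It includes the exon bases that PPOX (24.3%) and CPOX (8.5%) share with other genes. Reads there may not be counted, so the levels and shares of these 2 genes may be too low.

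**Figure D4:**
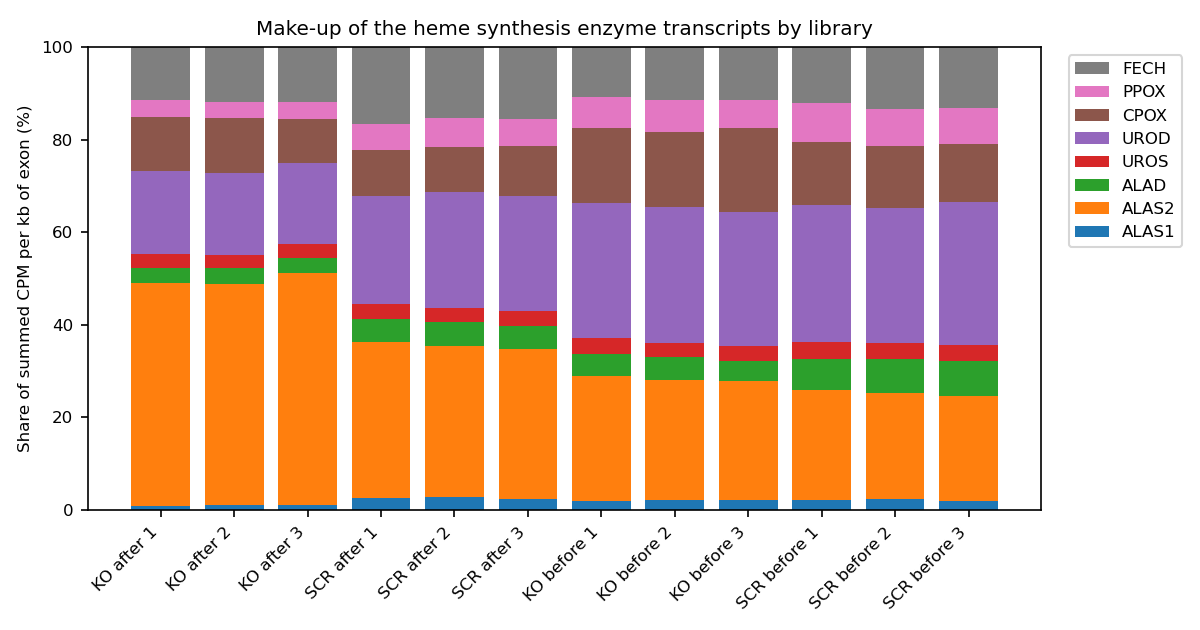
Share of each enzyme in the summed CPM per kilobase of exon of the 8 genes (y axis, percent) in each of the 12 libraries (x axis). ALAS2 took 48.6% in knockout cells after differentiation and 32.9%, 26.2% and 23.0% in the groups of control after, knockout before and control before differentiation.

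Members also differed in how alike their profiles were across the 12 libraries. Likeness was the root mean square difference of log2 CPM after each gene was centred on its own mean, so that 0 is an identical profile. Among the 8, ALAD and PPOX were the most alike (0.13), followed by UROD and PPOX (0.15) and by UROS and FECH (0.19). ALAS1 and ALAS2 were the least alike (0.91). Among the 11202 genes that averaged 2 or more in log2 CPM, those nearest to ALAS2 were ATG4A (0.16), BPGM (0.17), CCDC88B (0.20) and FOXO3 (0.22). BPGM makes the 2,3-bisphosphoglycerate that sets the oxygen affinity of hemoglobin, ATG4A is a protease that processes LC3-family proteins in autophagy, and FOXO3 is a transcription factor. BPGM averaged 81.8 ± 2.12 CPM in knockout cells and 18.1 ± 1.23 CPM in control cells after differentiation, and 21.5 ± 1.89 CPM in knockout cells and 11.9 ± 0.94 CPM in control cells before it. FECH was nearest to PPT2 (0.08), MAP1LC3B (0.11), GYPC (0.11) and CALCOCO1 (0.11), where GYPC is the red cell glycophorin C and MAP1LC3B the autophagy protein LC3B. The counts of PPT2 are uncertain, since 56.0% of its exon bases are shared with PPT2-EGFL8 or PRRT1. ALAS1 was nearest to TSC22D1 (0.10), AP2B1 (0.10), INTS9 (0.11) and GNL3L (0.11). These likenesses describe 12 libraries of 4 groups that share their differences of genotype, stage and medium.

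Carriers that feed or drain the mitochondrial steps were described next to the enzymes, from lists drawn up by function. Of 11 genes of mitochondrial transport for heme synthesis, 8 were higher and 1 lower in knockout cells after differentiation (median log2 fold change 0.90), and 5 were higher and 1 lower before it (median 0.21). Of all genes, 16.8% were called higher and 16.3% lower after differentiation, and 9.07% and 8.15% before it. SLC25A37, mitoferrin-1, which brings iron into erythroid mitochondria, averaged 4167 CPM in knockout cells and 946 CPM in control cells after differentiation, 2.14 ± 0.08 on the log2 scale (edgeR adjusted p = 9.26e-12). Before differentiation it was higher by 1.14 ± 0.08 (edgeR adjusted p = 2.62e-08), so the iron carrier and ALAS2 stood higher at both stages. FAM210B, a mitochondrial protein needed for full heme synthesis in mouse erythroid cells, gave 1.33 ± 0.07 after and 0.67 ± 0.07 before differentiation (edgeR adjusted p = 2.66e-10 and 2.37e-06). TMEM14C, which moves protoporphyrinogen IX into the matrix, and ABCB10, an inner membrane transporter, were higher after differentiation by 0.90 ± 0.07 and 0.98 ± 0.08 (edgeR adjusted p = 3.81e-08 and 8.93e-08). Their values before it were 0.21 ± 0.07 and 0.43 ± 0.08 (edgeR adjusted p = 0.0572 and 0.00136). SLC25A39, a carrier of mitochondrial glutathione, was higher by 1.24 ± 0.15 after and 1.31 ± 0.17 before differentiation (edgeR adjusted p = 5.13e-06 and 3.78e-05). ABCB6 was also higher, by 1.75 ± 0.15 and 0.77 ± 0.14 (edgeR adjusted p = 1.13e-07 and 0.000659), but 54.5% of its exon bases are shared with ATG9A, so its counts are uncertain.

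Differentiation raised 7 of the 11 transport genes in knockout cells and lowered 2 (median 0.57). In control cells it raised 4 and lowered 4 (median 0.03). It raised 28.0% and lowered 27.7% of all genes in knockout cells, and 21.5% and 22.3% in control cells. SLC25A37 rose by 2.33 ± 0.08 in knockout and 1.33 ± 0.08 in control cells, and SLC25A39 by 2.18 ± 0.16 and 2.25 ± 0.17 (edgeR adjusted p at most 1.82e-08). TMEM14C rose by 1.16 ± 0.07 in knockout and 0.47 ± 0.07 in control cells (edgeR adjusted p = 7.2e-10 and 5.46e-05). FAM210B rose in knockout cells by 0.67 ± 0.07 (edgeR adjusted p = 3.08e-07), with 0.00 ± 0.07 in control cells (edgeR adjusted p = 0.984). PGRMC1, a heme-binding membrane protein, fell by 0.64 in knockout and 0.63 in control cells on the log2 scale (edgeR adjusted p = 1.18e-05 and 1.17e-05). By the interaction, 6 of the 11 had a larger knockout effect after differentiation and none a smaller one (median 0.55), beside 6.28% and 6.68% of all genes.

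Iron-sulfur cluster genes, whose product sits in FECH and switches an iron regulatory protein, went in both directions. Of 11 tested (12 listed), 4 were higher and 2 lower in knockout cells after differentiation (median 0.04), and 3 were higher and none lower before it (median 0.15), beside 16.8% and 16.3% of all genes after and 9.07% and 8.15% before differentiation. GLRX5, a glutaredoxin that hands on the cluster, averaged 271 CPM in knockout cells and 116 CPM in control cells after differentiation, 1.23 ± 0.07 on the log2 scale (edgeR adjusted p = 8.66e-10), and was higher by 0.71 ± 0.07 before it (edgeR adjusted p = 1.61e-06). ISCA1, ISCU (the assembly scaffold) and HSPA9 (a chaperone) were higher after differentiation by 0.82 ± 0.08, 0.45 ± 0.06 and 0.22 ± 0.06 (edgeR adjusted p = 3.44e-07, 3.49e-05 and 0.0101). ISCA1 and ISCU were not called before it, at 0.20 ± 0.08 and 0.13 ± 0.06 (edgeR adjusted p = 0.105 and 0.194). Before differentiation HSPA9 and the cysteine desulfurase NFS1 were higher by 0.25 ± 0.06 and 0.28 ± 0.09 (edgeR adjusted p = 0.00855 and 0.0366), and after it NFS1 was lower, at -0.30 ± 0.09 (edgeR adjusted p = 0.0213). The HSPA9 call after differentiation was lost without control library 3 (adjusted p = 0.0571), with library sizes alone (0.432) and with no filter (0.0704). That of NFS1 before differentiation was lost in 10 of its alternatives, 6 of them without single libraries: control library 1, 2 or 3 (adjusted p = 0.137, 0.0963 and 0.0569) or knockout library 2 or 3 (0.153 and 0.069) from before differentiation, or control library 1 from after it (0.0508). With differentiation 5 rose and 4 fell in knockout cells (median 0.04), and 3 rose and 3 fell in control cells (median 0.00), where 21.5% of all genes rose and 22.3% fell, near the shares of the list. In knockout cells 28.0% of all genes rose and 27.7% fell. In knockout cells GLRX5 rose by 0.79 ± 0.07 and ISCA1 by 0.69 ± 0.08, while LYRM4, a partner of NFS1, fell by 0.68 and NFS1 by 0.57 (edgeR adjusted p at most 4.75e-05). ISCA1 and NFS1 were not called in control cells, at 0.07 ± 0.08 and 0.00 ± 0.09 (edgeR adjusted p = 0.541 and 0.998). In control cells GLRX5 rose by 0.28 ± 0.07 and LYRM4 fell by 0.32 (edgeR adjusted p at most 0.00488). BOLA3 rose by 0.52 ± 0.10 in knockout and 0.88 ± 0.10 in control cells, and HSCB fell by 1.37 and 1.31 (edgeR adjusted p at most 0.000333). HSCB shares 20.6% of its exon bases with CHEK2, and GLRX5 shares 18.2% with SNHG10 and SCARNA13.

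Regulators of ALAS and heme sensors were largely higher in knockout cells after differentiation: 8 of 12 tested (13 listed) were higher and 1 lower (median 0.39), and 5 were higher and none lower before it (median 0.25), beside the same 16.8% and 16.3%, and 9.07% and 8.15%, of all genes. NFE2, an erythroid transcription factor, was higher by 1.10 ± 0.07 after and 0.58 ± 0.07 before differentiation (edgeR adjusted p = 1.98e-09 and 1.32e-05). TAL1, a partner of GATA1, was higher by 0.86 ± 0.06 after and 0.23 ± 0.06 before differentiation (edgeR adjusted p = 1.82e-08 and 0.0194). BACH1, a repressor that heme inactivates, was higher by 0.84 ± 0.07 after and 0.27 ± 0.07 before it (edgeR adjusted p = 5.52e-08 and 0.012). EIF2AK1, the heme-regulated kinase that stops translation when heme is short, was higher after differentiation by 0.82 ± 0.08 (edgeR adjusted p = 4.41e-07), with 0.16 ± 0.08 before it (edgeR adjusted p = 0.189). LONP1, a mitochondrial protease that degrades ALAS1, and KLF1, which binds CACCC boxes, were higher by 0.31 ± 0.08 and 0.48 ± 0.08 after differentiation (edgeR adjusted p = 0.0086 and 0.000116). Before it they were higher by 0.37 ± 0.09 and 0.28 ± 0.08 (edgeR adjusted p = 0.00547 and 0.0184). GATA2 was the gene called lower after differentiation, at -1.38 ± 0.15, with -0.15 ± 0.12 before it (edgeR adjusted p = 1.26e-06 and 0.444). TAL1, KLF1 and GATA1 of this list are also among the erythroid markers above, and GATA2 among the mast cell and basophil markers. The BACH1 call before differentiation was lost without control library 3 or knockout library 1 (adjusted p = 0.0608 and 0.0626), and that of KLF1 without control library 1 or 2 (0.0905 and 0.0849) or knockout library 1 or 2 (0.0517 and 0.0698). With differentiation 7 rose and 3 fell in knockout cells (median 0.59), and 8 rose and 3 fell in control cells (median 0.41). The shares of all genes were 28.0% and 27.7% in knockout and 21.5% and 22.3% in control cells. NFE2 rose by 1.13 ± 0.07 in knockout and 0.60 ± 0.07 in control cells, TAL1 by 1.09 ± 0.06 and 0.46 ± 0.06, EIF2AK1 by 1.04 ± 0.08 and 0.39 ± 0.08, and LONP1 by 0.55 ± 0.08 and 0.61 ± 0.09 (edgeR adjusted p at most 0.000744). GATA2, the early GATA factor, fell by 1.99 in knockout and 0.76 in control cells, and ACO1, the iron regulatory protein that carries a cluster, by 0.92 and 0.84 (edgeR adjusted p at most 7.58e-05).

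**Figure D5:**
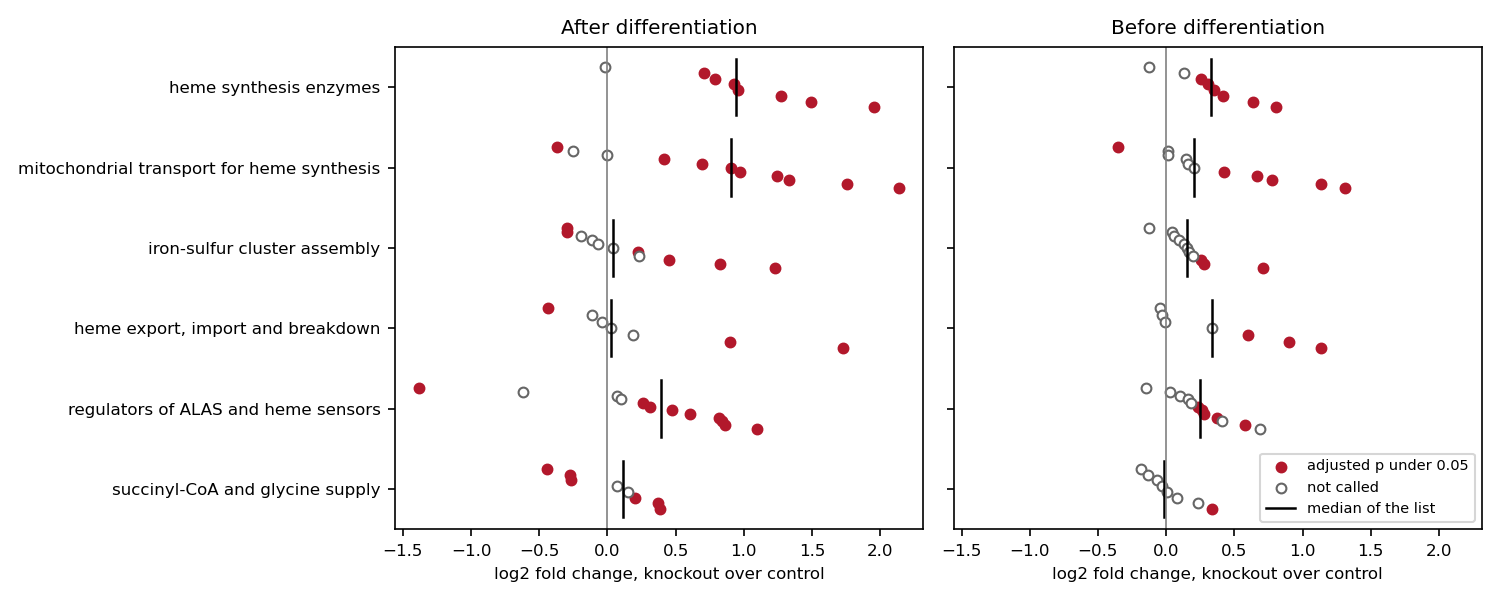
Log2 fold change of knockout over control (x axis) for each tested gene of the heme synthesis enzymes and of 5 related lists (y axis), after differentiation on the left and before it on the right. Red points passed an adjusted p of 0.05, open points did not, and black lines are medians. After differentiation the medians of the enzymes (0.94) and of mitochondrial transport (0.90) were the highest of the 6.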

How the data were processed

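The authors deposited raw counts of read pairs per gene with no normalization, and per the file headers these were made with featureCounts 1.4.6-p4 on GENCODE release 22 exons of build hg38, with no strand option. Per the submitters' processing notes, Trimmomatic, FastQC, Subread 1.6.2, featureCounts 1.2.6 and edgeR 3.18.1 were used, and per the labels' protocols the kit was stranded. Symbols came from a reference list of gene names matched by identifier, with GENCODE release 29 where that list gave none. Symbols were found for 56753 of 60483 genes. From the deposited counts, genes were filtered with filterByExpr, scaled with TMM and fitted with edgeR 4.0.16 (R 4.3.3) glmQLFit over all 12 libraries without a block (common biological coefficient of variation 0.089). The SE is the log2 fold change divided by the square root of F. The fit was tested on simulated data. Calls were also made with DESeq2 1.42.0, other scalings and filters, 2 groups alone, a replicate block, and each library left out.

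The members and gene lists were chosen with earlier results of these data known. Named were all 8 members, MBD2, from each list up to 4 called genes with the smallest adjusted p per comparison, and the 4 genes most like ALAS2, ALAS1 and FECH. A gene that this rule would name is not reported here. CLDND1, B4GALT3 and FECHP1 were added as overlapping genes or copies.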

Additional observations from a re-analysis of the deposited data

Results flagged for a closer look

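The knockout effect differed between the stages for 7 of the 8 enzymes by the interaction contrast of edgeR, the log2 fold change of knockout over control after differentiation minus that before it. It was 1.32 for ALAS2, 0.96 for UROS, 0.92 for ALAD, 0.70 for FECH, 0.69 for CPOX, 0.57 for PPOX and 0.51 for UROD, with an edgeR adjusted p of at most 0.00308. Of all genes tested, the contrast called 6.28% higher and 6.68% lower. For ALAS2, UROS, UROD, CPOX and FECH both stages were called higher, and for ALAD and PPOX only the later stage was. Of the transport genes, the interaction was 1.00 for SLC25A37, 0.70 for TMEM14C and 0.67 for FAM210B (edgeR adjusted p at most 0.000257).

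Of the iron-sulfur cluster genes it was 0.63 for ISCA1, 0.51 for GLRX5 and 0.32 for ISCU, and -0.57 for NFS1 (edgeR adjusted p at most 0.0254). ISCU missed the threshold with library sizes alone, with no filter, and without library 1 or 2 of control cells before, control cells after or knockout cells after differentiation (adjusted p from 0.057 to 0.16). Among the regulators it was 0.65 for EIF2AK1, 0.63 for TAL1 and 0.57 for BACH1, and -1.23 for GATA2 (edgeR adjusted p at most 0.000994). GATA2 averaged 10.3 CPM in knockout cells and 26.5 CPM in control cells after differentiation, and 40.7 CPM in knockout cells and 44.99 CPM in control cells before it.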

How the results depend on the processing

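Under the alternatives, 758 of 792 values of the 8 enzymes kept their direction and their side of the threshold, and 1659 of 1708 of the named list genes did, the other 49 losing the call. List genes were followed only in comparisons that had called them, so none could gain a call. Both tallies include leaving out libraries of groups outside the comparison, which acts on it only through the shared fit. Calls near the threshold still crossed it in this way, for ALAD in control cells and NFS1 before differentiation (both given above). The 7 members called higher in the knockout after differentiation, with differentiation in knockout cells and by the interaction were 7 in number under every alternative. With library sizes alone the median of all genes moved to -0.17 after differentiation, -0.16 for stages in knockout cells and -0.14 for the interaction. Calls in knockout against control after differentiation were then 1843 higher and 4826 lower, and those of the interaction 644 and 2146, with 1 member lower, ALAS1 at -0.50. The number of members called lower with differentiation in control cells was 1 (ALAD) with library sizes alone, no filter, 2 groups alone and the replicate block. Leaving out libraries, that number ran from 0 to 1, and genes called higher in the knockout before differentiation ran from 1024 to 1589. The cause of these moves was not tested. Values near 0 changed sign. UROD with differentiation in control cells was -0.0472 with library sizes alone and -0.0206 with no filter, and ran from -0.0306 to 0.0432 with libraries left out. ALAS1 with differentiation in knockout cells was -0.024 with library sizes alone, and ALAS1 in knockout against control after differentiation ran from -0.0592 to 0.0546 with libraries left out. FECH stood 1.32 above the median of those chromosome 18 genes that averaged 2 or more in log2 CPM for stages in knockout cells, against 1.23 over all 265.

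The deviations of libraries of the same number correlated at r from -0.018 to 0.251, and in each of the 4 pairs of groups compared at least 1 same-numbered pair was below 0.1, so the numbers were not taken as pairs. A library was most like the one of its own number in 23 of 36 matches, where 12 would share it if numbers carried nothing, a hint in these data that they may. The replicate block moved no count of called genes by over 1.5 times and made the ALAD call above (-0.21, edgeR adjusted p = 0.0429). For knockout against control before differentiation it called 1869 genes higher and 1622 lower, against 1558 and 1400 in the main fit. Depth limits ALAS1 most, at 155 to 343 counts a library.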

Other observations

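Genes that export, import or break down heme were called in both directions after differentiation. Of 7 tested (8 listed), 2 were higher and 1 lower in knockout cells after differentiation (median log2 fold change 0.02), and 3 were higher and none lower before it (median 0.34). Of all genes, 16.8% were called higher and 16.3% lower after differentiation, and 9.07% and 8.15% before it. ABCG2, a porphyrin exporter, was higher by 1.73 ± 0.16 after and 1.14 ± 0.15 before differentiation, and BLVRB, a biliverdin reductase abundant in red cells, by 0.89 ± 0.08 and 0.60 ± 0.08 (edgeR adjusted p at most 4.57e-05). HMOX2, the constitutive heme oxygenase, was lower after differentiation by -0.44 ± 0.15 (edgeR adjusted p = 0.0322), and the inducible HMOX1 was higher before it by 0.90 ± 0.26, at 2.99 CPM in knockout and 1.58 CPM in control cells (edgeR adjusted p = 0.0219). The HMOX2 call was lost without control library 1 or 3 (adjusted p = 0.0712 and 0.11) or knockout library 1 (0.176), and that of HMOX1 without control library 1 or 2 (0.109 and 0.0661) or knockout library 2 (0.0731). With differentiation 5 of 7 rose and 1 fell in both genotypes, beside 28.0% and 27.7% of all genes in knockout and 21.5% and 22.3% in control cells. SLC48A1, which carries heme out of lysosomes, rose by 1.39 ± 0.13 in knockout and 1.77 ± 0.13 in control cells, BLVRB by 1.11 ± 0.08 and 0.82 ± 0.08, and BLVRA by 0.37 ± 0.06 and 0.32 ± 0.06 (edgeR adjusted p at most 0.000411). HMOX1 rose by 1.26 ± 0.21 in knockout and 1.97 ± 0.23 in control cells, and HMOX2 fell by 1.12 and 0.69 (edgeR adjusted p at most 0.000417). None of the 7 was called by the interaction of edgeR, where 6.28% of all genes were called higher and 6.68% lower.

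Of 8 genes that supply succinyl-CoA and glycine, 3 were higher and 3 lower in knockout cells after differentiation (median 0.11), and 1 was higher before it, OGDH, by 0.34 ± 0.09 (median -0.01, edgeR adjusted p = 0.0133). Beside the shares of all genes (16.8% and 16.3% after, 9.07% and 8.15% before), the 1 of 8 before differentiation is near the background. After differentiation DLST, OGDH and DLD, the subunits of the 2-oxoglutarate dehydrogenase complex that makes succinyl-CoA, were higher by 0.38 ± 0.08, 0.37 ± 0.09 and 0.20 ± 0.06 (edgeR adjusted p at most 0.0171). SHMT1, a glycine-forming enzyme of the cytosol, was lower by -0.44 ± 0.13 (edgeR adjusted p = 0.0128). SUCLG2 and SUCLA2, subunits of succinyl-CoA ligase, were also lower, each by -0.27 ± 0.10 (edgeR adjusted p = 0.0417 and 0.042). The calls of SUCLG2 and SUCLA2 there were not followed under the alternatives. Without single libraries the call was lost for OGDH before differentiation (control library 1, adjusted p = 0.0785, or knockout library 2, 0.0583). After differentiation it was lost for DLD (control library 1 or 2, 0.0726 and 0.0605, or knockout library 2, 0.0738) and for SHMT1 (knockout library 1, 0.0826). With library sizes alone DLST, OGDH and DLD were not called after differentiation (0.0728, 0.0949 and 0.592). With differentiation, which lowered 27.7% of all genes in knockout and 22.3% in control cells, the succinyl-CoA ligase subunits fell in both genotypes: SUCLG2 by 0.82 in knockout and 0.74 in control cells, SUCLG1 by 0.50 and 0.64, and SUCLA2 by 0.60 and 0.45 (edgeR adjusted p at most 0.000729). SHMT1 fell by 0.78 in knockout and 0.37 in control cells (edgeR adjusted p = 5.07e-05 and 0.0174), the control call being lost without control library 2 or 3 from before differentiation (0.0533 and 0.0723) or control library 1 or 2 from after it (0.0613 and 0.0589).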
